A study of Mus musculus with 12 samples.

Results

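The sodium-potassium ATPase is the pump that keeps sodium low and potassium high inside animal cells. The genes described here are 3 of its beta subunits (Atp1b1, Atp1b2 and Atp1b3) and 4 of its FXYD regulators (Fxyd1, Fxyd2, Fxyd6 and Fxyd7). They were taken by gene symbol, and these 7 genes are among 40912 gene identifiers counted in mouse spinal cord. All 7 passed the filter on low counts that left 15905 genes for testing. In the pulldown of neuronal ribosomes Fxyd7 rose and Atp1b2 fell in both mouse lines, and Fxyd7 was also higher in the Chat pulldown than in the Snap25 pulldown. The rise of Fxyd7 over RNA from before the pulldown was not shown to differ between the lines (edgeR adjusted p = 0.213).

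The samples were spinal cords at postnatal day 21 from 2 transgenic bacTRAP lines, in which the ribosomal protein Rpl10a carries an EGFP tag so that ribosomes of the tagged cells can be pulled down with antibody. The strain Tg(Chat-EGFP/Rpl10a)DW167Htz places the tag under regulatory sequences of Chat, the acetylcholine synthesis gene of motor neurons and other cholinergic cells. The strain Tg(Snap25-EGFP/Rpl10a)JD362Jdd uses Snap25, a gene of neurons in general. Each line gave RNA from before the pulldown (PreIP_Chat, PreIP_Snap25; the input) and from tagged ribosomes (TRAP_Chat, TRAP_Snap25; the pulldown), with 3 libraries in each of the 4 groups. All groups carry a transgene, and no group without one is among the labels. The title of the series states the purpose, which is to compare ribosome-bound RNA of motor neurons with that of all neurons. The labels do not say whether replicates were separate animals, so p-values measure the spread between these libraries, which may be technical.

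The catalytic alpha subunit of the pump binds sodium, potassium and ATP, while the beta subunit is a glycoprotein that folds the alpha subunit and brings it to the cell surface. FXYD proteins are small single-span membrane proteins, named after a short amino acid motif, that bind the assembled pump and tune its affinity for ions. In nervous tissue the pump restores the ion gradients that firing and transmitter uptake run down, and neurons and glia are known to use different subunit combinations. Atp1b1 encodes the widespread beta 1 subunit, Atp1b2 the beta 2 subunit first described as an adhesion molecule on glia, and Atp1b3 the beta 3 subunit. Fxyd1 encodes phospholemman, Fxyd2 the gamma subunit best known from kidney, Fxyd6 phosphohippolin, and Fxyd7 a regulator found in brain.

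The 4 FXYD genes are told apart by their coding sequences, which are shown with the motif that the family shares. The capitals mark the 4 codons of the FXYD motif. The whole coding sequence is given for Fxyd7, which rose in both lines, and 60 bases around the motif for the others (bases 61 to 120 of the coding sequence for Fxyd1 and Fxyd6, 25 to 84 for Fxyd2). All are 5′ to 3′ from GENCODE M21 transcripts of the GRCm38 build.
Fxyd7: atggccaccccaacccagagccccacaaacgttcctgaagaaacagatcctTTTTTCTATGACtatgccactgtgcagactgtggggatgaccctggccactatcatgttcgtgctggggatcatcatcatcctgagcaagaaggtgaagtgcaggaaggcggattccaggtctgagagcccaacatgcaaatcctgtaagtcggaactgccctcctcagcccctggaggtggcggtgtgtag
Fxyd6: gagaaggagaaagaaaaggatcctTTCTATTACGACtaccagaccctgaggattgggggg
Fxyd1: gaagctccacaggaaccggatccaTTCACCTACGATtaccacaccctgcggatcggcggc
Fxyd2: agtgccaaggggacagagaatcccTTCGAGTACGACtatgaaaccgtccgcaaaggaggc
Aligned in pairs, the coding sequences of these 4 genes were identical at 58.4% (Fxyd1 and Fxyd7) to 66.2% (Fxyd2 and Fxyd6) of bases. Those of the 3 beta subunits were identical at 58.9% to 60.8%. No pair within either family shared a stretch of 25 bases, so a read of that length or more within one of these coding sequences has no identical copy in that of another member of its family.

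Fxyd7 and Fxyd1 are neighbours on the minus strand of chromosome 7 in GRCm38 (Fxyd7 chr7:31042513-31051467, Fxyd1 chr7:31051678-31057199), 211 bases apart, and Fxyd5 lies 32 bases from Fxyd7 on the same strand. Fxyd6 (chr9:45370185-45396159) and Fxyd2 (chr9:45399669-45410278) lie on the plus strand 3510 bases apart. Atp1b1 (chr1:164437109-164458355), Atp1b2 (chr11:69599736-69605942) and Atp1b3 (chr9:96332655-96364442) are on the minus strand of 3 chromosomes. Atp1b1 shares 575 exonic bases with Nme7 on the opposite strand, and no other member has an exonic overlap. Whether counting used strand is not given in the sources used here, but Nme7 had group means of only 0.939 to 2.18 counts per 1000000 (CPM, here after scaling by TMM).

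The libraries held 10149346 to 20521699 counts, so that 3 counts correspond to 0.146 to 0.296 CPM. Mitochondrial ribosomal RNA took 23.2% to 40.7% of the counts in the 6 input libraries and 0.209% to 6.67% in the 6 pulldowns, the highest being TRAP_Chat replicate 1. As a check of the labels, all 9 cholinergic motor neuron markers were higher in TRAP_Chat than in its input, and all 5 inhibitory neuron markers were lower. Summed levels of astrocyte, oligodendrocyte, oligodendrocyte precursor, microglia and meningeal fibroblast markers in the pulldowns were 10.7% to 18.7% of their input means. In TRAP_Chat and TRAP_Snap25 those of vessel markers were 31.1% and 26.3%, and those of ependymal markers 42.4% and 48.2%. The Snap25 pulldown held 214% of its input's summed cholinergic markers, against 876% in the Chat line. Of 9 markers of neurons in general, 3 were called higher in TRAP_Chat and 1 in TRAP_Snap25, with summed levels of 218% and 147% of the input means. The shares of all tested genes called higher were 12.6% and 9.69%, so the Snap25 count was near its share. In TRAP_Snap25, 0 of 5 inhibitory and 1 of 5 glutamatergic markers were called higher, with sums of 140% and 155% of the input means.

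Across the 15905 tested genes, edgeR's quasi-likelihood test with Benjamini-Hochberg adjustment called 12.6% as raised and 14.3% as lowered in the Chat pulldown relative to its input. Of the 7 members, 2 were called higher (Fxyd7 and Fxyd6) and 1 lower (Atp1b2). For TRAP_Snap25 against PreIP_Snap25 the background was 9.69% higher and 12.7% lower, and among the members 2 were higher (Fxyd7 and Atp1b1) and 2 lower (Atp1b2 and Fxyd1). Between the pulldowns, the Chat side was the higher one for 3.97% of genes and the lower one for 2.77%, and 2 members were higher (Fxyd7 and Fxyd1). The median log2 fold change of the members was 0.02, 0.20 and 0.31 in these 3 comparisons, beside -0.06, -0.00 and 0.01 over all tested genes. The changes ran in both directions, so the genes are described one by one.

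**Figure D1:**
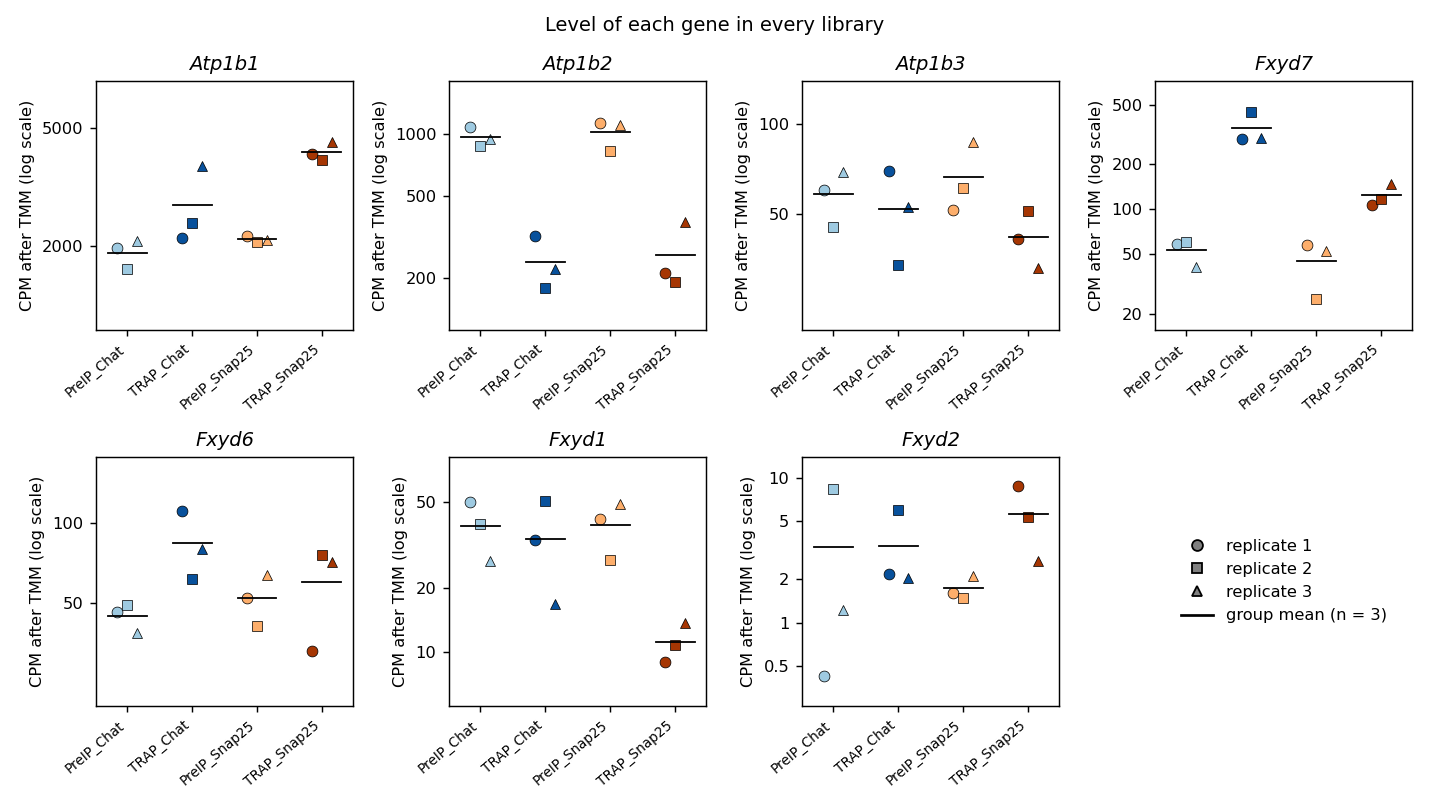
Counts per 1000000 (CPM, log axis) of the 7 genes in each of the 12 libraries, with 1 panel per gene; symbols mark the replicate number and lines the mean of 3 libraries. Fxyd7 is highest in the 3 TRAP_Chat libraries (297 to 453 CPM) and Atp1b2 is lower in all 6 pulldowns (179 to 375 CPM) than in all 6 inputs (828 to 1135 CPM).

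Atp1b1 was the most abundant member in every group. Its input levels were 1957, 1664 and 2069 CPM in the Chat line and 2162, 2052 and 2091 CPM in the Snap25 line. In TRAP_Snap25 it measured 4085, 3879 and 4494 CPM, above every input library and above all 3 TRAP_Chat libraries. This was a rise of 0.98 ± 0.25 on the log2 scale over input (SE, n = 3 per group; edgeR adjusted p = 0.011), or 1.98-fold. In TRAP_Chat it measured 2116, 2384 and 3702 CPM. All 3 values lay above the PreIP_Chat values, but they spread widely and the log2 difference of 0.53 ± 0.25 did not pass the threshold (adjusted p = 0.128). The pulldowns did not differ past the threshold either (log2 -0.60 ± 0.25 for TRAP_Chat against TRAP_Snap25, adjusted p = 0.166), although their values did not overlap. In order of mean level the groups were TRAP_Snap25 (4153 CPM), TRAP_Chat (2734), PreIP_Snap25 (2102) and PreIP_Chat (1897), and each of the last 3 overlapped its neighbour while TRAP_Snap25 stood apart. Per kilobase of merged exons, which allows genes to be compared, Atp1b1 ranked 12 of 15849 genes in TRAP_Snap25, 24 in TRAP_Chat, and 23 and 26 in the inputs of the Snap25 and Chat lines.

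Atp1b2 fell in both pulldowns. The inputs held 1089, 875 and 943 CPM (PreIP_Chat) and 1135, 828 and 1106 CPM (PreIP_Snap25). The pulldowns held 319, 179 and 222 CPM (TRAP_Chat) and 210, 190 and 375 CPM (TRAP_Snap25). No pulldown library reached the lowest input, and the pulldowns overlapped each other. The log2 fold change over input was -2.01 ± 0.30 in the Chat line (adjusted p = 0.000221) and -1.98 ± 0.30 in the Snap25 line (adjusted p = 0.00039), about 4.04-fold and 3.96-fold lower. Between the pulldowns it differed by -0.11 ± 0.29 (adjusted p = 0.881). In bulk RNA of a pulldown, RNA of tagged cells and RNA carried over from other cells cannot be told apart. By length-adjusted level Atp1b2 ranked 99 and 94 of 15849 genes in the inputs and 687 and 649 in the pulldowns.

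Glial markers moved with Atp1b2. The 8 astrocyte markers summed to 1365 to 1709 CPM in the 6 inputs and to 154 to 384 CPM in the 6 pulldowns, and none of the 8 was at 0 in all libraries of a group. The 8 oligodendrocyte markers summed to 15950 to 22340 CPM in the inputs and to 1691 to 5809 CPM in the pulldowns. Of the astrocyte markers 7 fell in TRAP_Chat (not Slc7a10, adjusted p = 0.057) and all 8 in TRAP_Snap25. Within each pulldown group, the library with the highest Atp1b2 level was also the one with the highest astrocyte and oligodendrocyte sums (TRAP_Chat replicate 1 and TRAP_Snap25 replicate 3). The part of these cells' RNA in the Atp1b2 level was not tested.

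Atp1b3 was a minor subunit with no called difference. It measured 60.02, 45.5 and 69.0 CPM in PreIP_Chat, 69.5, 33.9 and 53.0 in TRAP_Chat, 51.5, 61.0 and 86.6 in PreIP_Snap25, and 41.4, 51.4 and 33.1 in TRAP_Snap25. The TRAP_Snap25 values ended just below the lowest PreIP_Snap25 value, and the other groups overlapped. The log2 fold change over input was -0.16 ± 0.29 in the Chat line (adjusted p = 0.724) and -0.66 ± 0.29 in the Snap25 line (adjusted p = 0.118).

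As shares of the summed beta level per length, the balance lay further towards Atp1b1 in both pulldowns. Atp1b1 made up 70.2% ± 1.81 of PreIP_Chat and 71.1% ± 2.95 of PreIP_Snap25 (SD, n = 3), and 91.2% ± 4.08 of TRAP_Chat and 94.4% ± 1.002 of TRAP_Snap25. Atp1b2 made up 27.1% ± 2.05 and 26.0% ± 2.86 of the inputs, and 6.45% ± 2.97 and 4.36% ± 1.32 of the pulldowns. Atp1b3 averaged 2.76% and 2.90% of the Chat and Snap25 inputs, and 2.37% and 1.25% of the pulldowns. Its share in TRAP_Snap25, at most 1.62%, lay below that in PreIP_Snap25, at least 2.15%, while the shares in the Chat line overlapped. The input and pulldown shares of Atp1b1 and of Atp1b2 did not overlap in either line, while those of TRAP_Chat and TRAP_Snap25 did. No test is given for the shares, since 3 libraries against 3 cannot reach an exact p below 0.10. Without length adjustment, the ratio of Atp1b1 to Atp1b2 counts was 1.80 to 2.48 in the 6 inputs, 6.64, 13.3 and 16.7 in TRAP_Chat, and 19.4, 20.4 and 11.97 in TRAP_Snap25. The lowest pulldown ratio belonged to TRAP_Chat replicate 1, the pulldown with the most mitochondrial ribosomal RNA.

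**Figure D2:**
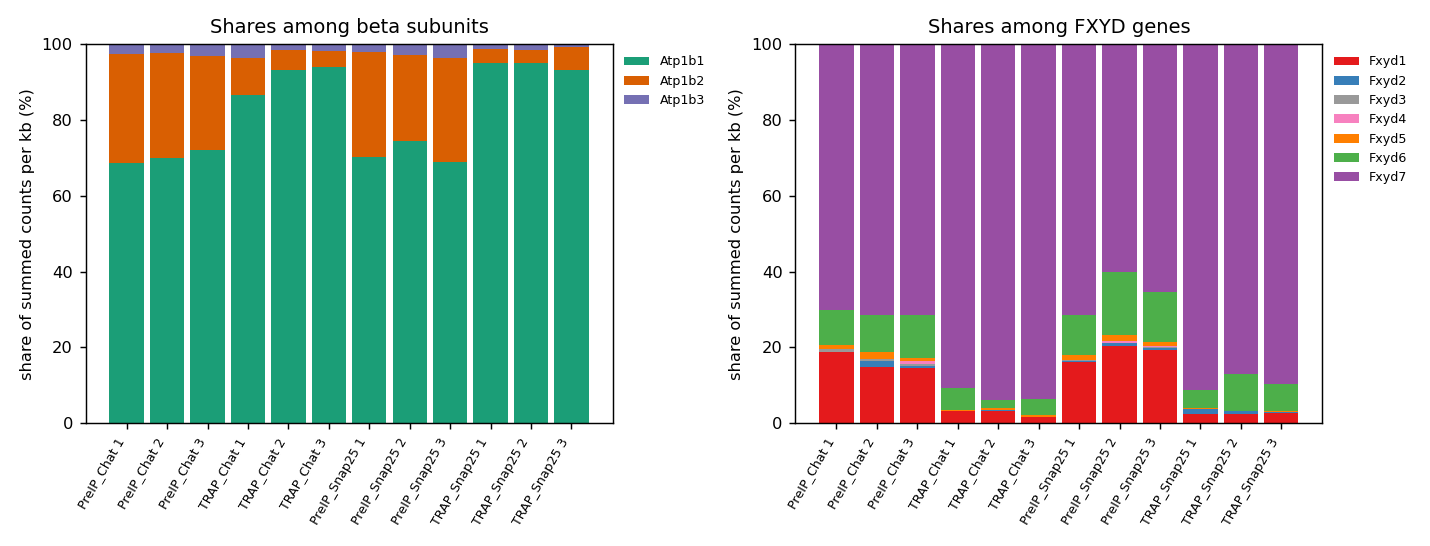
Stacked shares (%) of the summed counts per kilobase of merged exons, for the beta subunits (left) and the FXYD genes (right), with 1 bar per library. The Atp1b2 part shrinks from 22.7% to 28.8% of the bar in the inputs to 3.51% to 9.83% in the pulldowns, and Fxyd7 grows from 60.1% to 71.6% to 87.1% to 93.8%.

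Among the members called higher, Fxyd7 had the largest fold change over input in each line. It measured 59.1, 60.8 and 41.1 CPM in PreIP_Chat and 297, 453 and 299 CPM in TRAP_Chat. In the Snap25 line it measured 58.2, 24.99 and 52.4 CPM in the input and 108, 117 and 149 CPM in the pulldown. The 3 levels were separate: both inputs overlapped at the bottom, every TRAP_Snap25 library lay above them, and every TRAP_Chat library lay above TRAP_Snap25. Fxyd7 rose over input by 2.70 ± 0.32 on the log2 scale in the Chat line (6.52-fold, adjusted p = 3.3e-05) and by 1.46 ± 0.30 in the Snap25 line (2.75-fold, adjusted p = 0.00338). Between the pulldowns it was higher in TRAP_Chat by 1.49 ± 0.30 (2.81-fold, adjusted p = 0.0068). Per length, Fxyd7 ranked 338 and 429 of 15849 genes in the Chat and Snap25 inputs, 201 in TRAP_Snap25 and 55 in TRAP_Chat. Cholinergic markers summed to 2199 to 3407 CPM in TRAP_Chat, above every other library. Their sums of 315 to 605 CPM in TRAP_Snap25 overlapped those of the inputs (138 to 342 CPM). All 3 PreIP_Chat sums lay above 2 of the 3 TRAP_Snap25 sums, which rests on 1 gene, Slc18a3. It averaged 184 CPM of a mean sum of 332 in PreIP_Chat. In PreIP_Snap25 it averaged 50.7 of 193 CPM, and in TRAP_Snap25 110 of 412 CPM. Every other cholinergic marker had a higher mean in TRAP_Snap25 than in PreIP_Chat.

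Fxyd1 values overlapped between both inputs and TRAP_Chat, and lay lower in TRAP_Snap25. The values were 49.95, 39.7 and 26.6 CPM in PreIP_Chat, 33.3, 51.0 and 16.8 in TRAP_Chat, and 41.7, 26.9 and 49.2 in PreIP_Snap25. TRAP_Snap25 held 9.04, 10.8 and 13.6 CPM, below every other library. Fxyd1 fell by 1.82 ± 0.38 on the log2 scale from PreIP_Snap25 to TRAP_Snap25 (3.53-fold, adjusted p = 0.00337). In the Chat line the difference was -0.20 ± 0.36 (adjusted p = 0.712). TRAP_Chat was higher than TRAP_Snap25 by 1.596 ± 0.38 (3.02-fold, adjusted p = 0.0167), with values from 16.8 to 51.0 CPM that reach close to TRAP_Snap25 in replicate 3. That call was lost without TRAP_Chat replicate 2 (log2 1.20, adjusted p = 0.075), without TRAP_Snap25 replicate 1 (1.47, 0.0608) or replicate 2 (1.57, 0.0534), and in a fit of these 2 groups alone (1.57, 0.0626).

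Of 5 markers of myelinating Schwann cells, Pmp22 alone was, like Fxyd1, called higher in TRAP_Chat than in TRAP_Snap25, beside 3.97% of all tested genes. The 5 Schwann cell markers summed to 237 to 1446 CPM in the inputs, 974 to 1136 CPM in TRAP_Chat and 215 to 358 CPM in TRAP_Snap25. Most of this was Pmp22, a myelin gene also expressed by other cells, at 978, 920 and 942 CPM in TRAP_Chat against 295, 203 and 254 CPM in TRAP_Snap25 (log2 1.92, adjusted p = 0.00669). The myelin gene Prx, which is more particular to Schwann cells, fell in TRAP_Chat against its input (log2 -2.71, adjusted p = 0.00919), as did Mpzl1 (-1.90, adjusted p = 0.0142). Against input, 3 of the 5 were called lower in TRAP_Chat and likewise 3 in TRAP_Snap25 (median log2 of the 5 -1.90 and -2.16). The shares of all tested genes called lower were 14.3% and 12.7%. None of the 5 was at 0 in all libraries of a group. The part of such cells in the Fxyd1 levels was not tested.

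Fxyd6 rose in the Chat line and showed no called difference in the Snap25 line. It measured 46.4, 49.1 and 38.6 CPM in PreIP_Chat and 111, 61.7 and 80.0 CPM in TRAP_Chat. The groups did not overlap, with a log2 fold change of 0.91 ± 0.31 (1.88-fold, adjusted p = 0.0361). This call was lost on leaving out any PreIP_Chat library (adjusted p = 0.0781 to 0.131), TRAP_Chat replicate 1 (log2 0.66, adjusted p = 0.153) or replicate 3 (0.94, 0.0645), or PreIP_Snap25 replicate 1 (0.90, 0.0519). In the Snap25 line the values were 52.2, 41.1 and 63.6 CPM in the input and 33.1, 75.7 and 71.4 CPM in the pulldown. These overlapped, TRAP_Snap25 replicate 1 being the lowest of all 12 libraries (log2 0.20 ± 0.30, adjusted p = 0.683). The pulldowns also overlapped (0.49 ± 0.30, adjusted p = 0.382).

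Fxyd2 was low and varied widely between libraries. It had 7, 150 and 23 counts in PreIP_Chat, 35, 79 and 39 in TRAP_Chat, 29, 23 and 32 in PreIP_Snap25, and 119, 96 and 26 in TRAP_Snap25. As levels these were 0.43, 8.31 and 1.22 CPM, 2.16, 5.97 and 2.03 CPM, 1.59, 1.49 and 2.09 CPM, and 8.74, 5.36 and 2.64 CPM. In both Chat fractions replicate 2 was the highest library. The log2 fold change over input was 0.02 ± 0.80 in the Chat line (adjusted p = 0.987), and 2.01 without PreIP_Chat replicate 2 (adjusted p = 0.086). In the Snap25 line it was 1.70 ± 0.82 without overlap of the groups (adjusted p = 0.151), and between the pulldowns -0.73 ± 0.80 (adjusted p = 0.657).

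Markers of sensory neurons, which are known to express Fxyd2, were also high in replicate 2 of the Chat line. The 5 sensory markers summed to 0.43, 6.76 and 0.85 CPM in PreIP_Chat and to 1.05, 13.7 and 0.42 CPM in TRAP_Chat. In the Snap25 line they summed to 1.43, 0.39 and 0.39 CPM in the input and to 0.88, 0.0 and 1.02 CPM in the pulldown. Trpv1 and Mrgprd were at 0 in all libraries of both pulldown groups. In TRAP_Snap25, where Fxyd2 was highest on average, the sensory sum was therefore at most 1.02 CPM. The part of sensory neuron RNA in the Chat libraries' Fxyd2 levels was not tested.

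**Figure D3:**
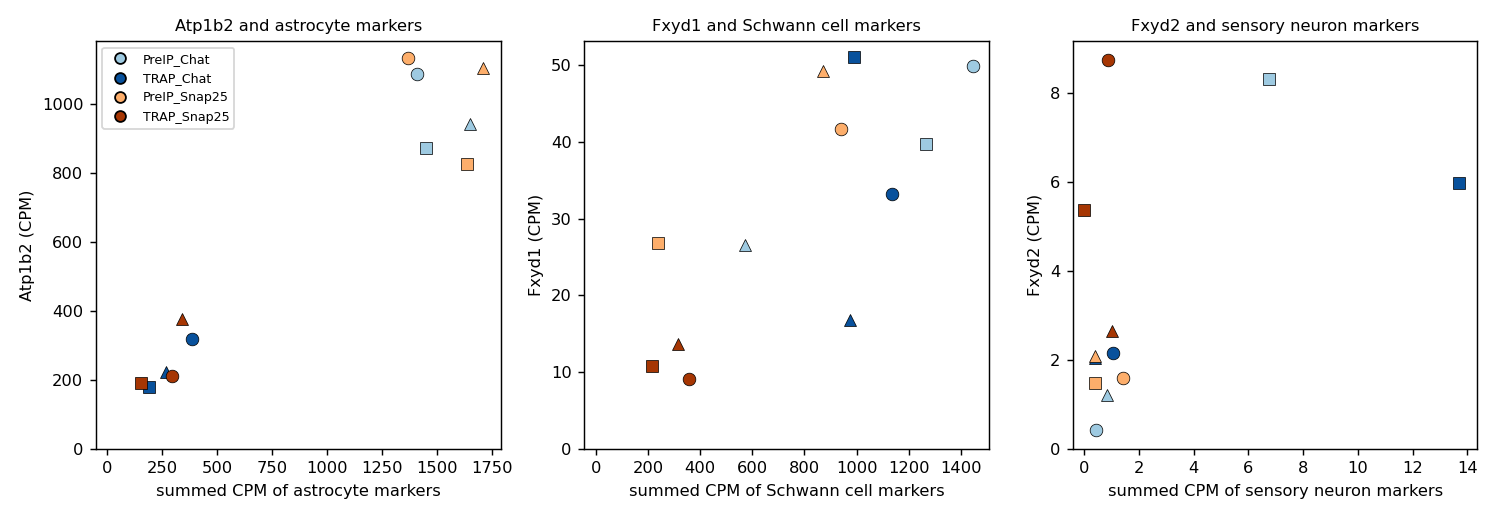
Level of 3 genes (CPM, vertical axes) against the summed CPM of a marker list (horizontal axes) in the 12 libraries: Atp1b2 and astrocyte markers, Fxyd1 and Schwann cell markers, Fxyd2 and sensory neuron markers; colours mark the group and symbols the replicate as in the plot of levels by library. Atp1b2 separates into 6 inputs at 828 CPM or more and 6 pulldowns at 375 CPM or less, and the sensory sum exceeds 6 CPM in replicate 2 of both Chat fractions alone.

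Within the FXYD genes, Fxyd7 held the largest share per kilobase of merged exons in every library. It made up 71.0% ± 0.808 of PreIP_Chat and 65.6% ± 5.61 of PreIP_Snap25 (SD, n = 3), and 92.7% ± 1.73 of TRAP_Chat and 89.3% ± 2.10 of TRAP_Snap25. The Fxyd1 share was 16.1% and 18.7% in the inputs and 2.75% and 2.53% in the pulldowns, and the Fxyd6 share 10.1% and 13.6% against 4.03% and 7.17%. These figures rest strongly on the length used, since the merged exons of Fxyd7 span 693 bases and those of Fxyd6 4107. With no division by length the Fxyd7 share was 35.9% and 30.6% in the inputs and 72.5% and 61.7% in the pulldowns, so the higher share in the pulldowns was kept. The Fxyd6 share was then 30.3% and 36.9% in the inputs, above Fxyd7 in PreIP_Snap25, and 18.4% and 28.9% in the pulldowns. With the longest transcript as the length, the Fxyd1 share was 35.95% and 39.7% in the inputs and 8.17% and 7.37% in the pulldowns, and in PreIP_Snap25 replicate 2 Fxyd1 (40.2 CPM per kilobase) exceeded Fxyd7 (36.1). The ratio of Fxyd7 to Fxyd1 counts was 0.930 to 1.55 in the 6 inputs and 8.88 to 17.9 in the 6 pulldowns. In the pulldowns of the Chat and Snap25 lines it averaged 11.9 ± 5.17 and 11.2 ± 0.596, and the values overlapped, although each gene was called higher in TRAP_Chat.

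The change from input to pulldown was then compared between the lines, which corrects the pulldown comparison for each line's own input. Over all genes, 0.604% were called with a larger change in the Chat line and 0.44% with a smaller one. None of the 7 members was called by edgeR, DESeq2 or limma voom. An unadjusted p under 0.05 was found for 2 members, and for 1833 of the 15905 tested genes. The 2 members were Fxyd1, with a difference of 1.62 ± 0.52 on the log2 scale (adjusted p = 0.177), and Fxyd7, with 1.24 ± 0.42 (adjusted p = 0.213). The other 5 had adjusted p-values from 0.582 to 0.99. A different response of the lines was therefore not shown for Atp1b1, Fxyd1 or Fxyd6, each of which passed the threshold in 1 line only. Nor was it shown for Fxyd7, which passed in both lines and between the pulldowns. With no filter on low counts Fxyd1 passed (log2 1.61, adjusted p = 0.022).

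The inputs of the lines did not differ past the threshold in any member. Log2 differences between PreIP_Chat and PreIP_Snap25 ran from -0.23 (Fxyd6) to 0.94 (Fxyd2), each with an adjusted p of 0.9998. In this comparison edgeR called 0.0% of the 15905 genes higher and 0.0% lower. At an unadjusted p under 0.05 it counted 133 genes and none of the members, and DESeq2 and limma voom called no member.

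**Figure D4:**
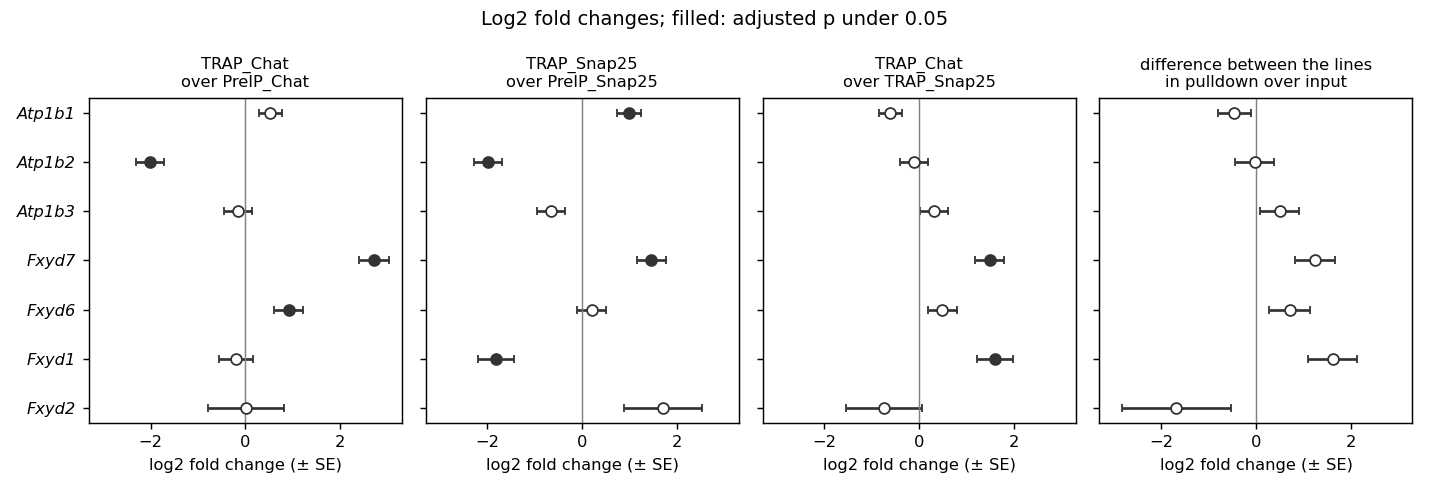
Log2 fold changes with their SE for the 7 genes in 4 comparisons (edgeR, 3 libraries per group); filled points have an adjusted p under 0.05. Fxyd7 is filled in the first 3 panels, Atp1b2 in the first 2 at close to -2, and no point is filled in the panel of the difference between the lines.

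Of the FXYD genes that are not members, Fxyd3 and Fxyd5 could be tested. Fxyd3 fell in TRAP_Chat against its input, from 63, 42 and 41 counts to 1, 6 and 3, too few for a fold change (adjusted p = 0.0153). That call was lost without PreIP_Chat replicate 1 (adjusted p = 0.0611) or TRAP_Chat replicate 3 (0.0568). Fxyd5, which encodes dysadherin, fell in TRAP_Snap25 against its input, from 5.44, 3.76 and 5.15 CPM to 1.18, 0.782 and 2.03 CPM (log2 -1.87 ± 0.56, adjusted p = 0.0254). This call was lost without PreIP_Snap25 replicate 1 or 3 or TRAP_Snap25 replicate 1 or 2 (adjusted p = 0.0562 to 0.0885).

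Between the pulldowns Fxyd5, the gene beside Fxyd7, was higher in TRAP_Chat by 2.70 ± 0.57 on the log2 scale (adjusted p = 0.00928), at 4.33, 14.96 and 6.25 CPM in TRAP_Chat. In a fit of the pulldowns alone the call was lost (adjusted p = 0.0553). In the difference between the lines DESeq2 called Fxyd5 (adjusted p = 0.0396), while edgeR did not (log2 2.47 ± 0.77, adjusted p = 0.156).

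The NKAIN genes encode membrane proteins that bind beta subunits of the pump, and all 4 were tested. Nkain1 fell in TRAP_Chat, from 48.4 ± 14.8 to 15.4 ± 7.75 CPM (SD, n = 3; log2 -1.65 ± 0.39, adjusted p = 0.00524). Nkain2 measured 66.4 ± 9.96 CPM in PreIP_Chat and 42.5 ± 7.83 CPM in TRAP_Chat, a difference that edgeR did not call (-0.64 ± 0.27, adjusted p = 0.0851). It passed in a fit of these 2 groups alone (adjusted p = 0.0369) and without TRAP_Snap25 replicate 3 (0.0445), and DESeq2 called 2 NKAIN genes lower in this comparison, Nkain2 not among them. In TRAP_Snap25 Nkain1 fell from 40.3 ± 3.27 to 14.2 ± 7.76 CPM (-1.52 ± 0.39, adjusted p = 0.0107) and Nkain2 from 56.4 ± 9.16 to 20.6 ± 6.84 CPM (-1.46 ± 0.27, adjusted p = 0.00183). Nkain2 was higher in TRAP_Chat than in TRAP_Snap25, at 42.5 ± 7.83 against 20.6 CPM (1.05 ± 0.27, adjusted p = 0.0276). This last call was lost without TRAP_Chat replicate 2 or 3 or TRAP_Snap25 replicate 1 or 2, and in a fit of the pulldowns alone (adjusted p = 0.0651 to 0.148).

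Of 11 other P-type pumps of calcium, protons and potassium, 9 were tested. For edgeR only Atp2a3, a calcium pump of the endoplasmic reticulum, was called lower in TRAP_Chat than in its input. It had group means of 2.06 and 0.12 CPM (adjusted p = 0.0266), too low for a fold change, and the call was lost without PreIP_Chat replicate 2, TRAP_Chat replicate 2 or TRAP_Chat replicate 3 (adjusted p = 0.0815 to 0.157). In TRAP_Snap25 against its input no such pump was called by edgeR, DESeq2 or limma voom. Of the 9, 1 had an unadjusted p under 0.05, as did 5609 of all 15905 tested genes. Between the pulldowns edgeR called none, and DESeq2 and limma voom 1 each. Here 2 of the 9 had an unadjusted p under 0.05, as did 3445 of the 15905 genes.

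A further 10 transporters that run on the sodium gradient were tested. In TRAP_Chat 3 of them were lower than in the input: Slc4a4, a sodium bicarbonate cotransporter, from 125 ± 15.9 to 40.9 ± 2.74 CPM (log2 -1.61 ± 0.22, adjusted p = 0.000121), Slc8a1, a sodium-calcium exchanger, by -1.30 ± 0.33 (adjusted p = 0.00861), and Slc4a7 by -1.43 ± 0.49 (adjusted p = 0.0407). The Slc4a7 call was lost without any one PreIP_Chat library, TRAP_Chat replicate 2 or 3, or PreIP_Snap25 replicate 1 (adjusted p = 0.0508 to 0.137). Slc4a4 alone was lower in TRAP_Snap25, from 145 ± 19.6 to 35.7 ± 6.18 CPM (-2.02 ± 0.22, adjusted p = 4.8e-05). Slc4a10 was lower in TRAP_Chat than in TRAP_Snap25 (-1.11 ± 0.27, adjusted p = 0.019), a call lost without TRAP_Chat replicate 1 or 3 or TRAP_Snap25 replicate 1 or 2, and in a fit of the pulldowns alone (adjusted p = 0.0546 to 0.0764).

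The genes whose levels over the 12 libraries were most like each member's were taken by Pearson correlation of log2 CPM among the 10108 named genes that averaged 5 CPM or more. These correlations are descriptions, since the libraries share 4 groups and the fractions differ in many genes. Fxyd7 was most like Tmem63c (r = 0.993), Susd2 (0.991) and Ret (0.989), the receptor of glial cell line-derived neurotrophic factor signalling. Ret had group means of 76.2 and 54.6 CPM in the Chat and Snap25 inputs, 430 CPM in TRAP_Chat and 144 CPM in TRAP_Snap25, in the same order as Fxyd7. Atp1b2 was most like Npc1 (0.993), a cholesterol transporter of lysosomes, Olig1 (0.989), a transcription factor of the oligodendrocyte lineage, and Prex1 (0.989).

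For the other members the likeness was looser. Fxyd1 was closest to Ltbp4 (r = 0.956) and Cryab (0.915). Cryab, a small heat shock protein, had group means of 547 and 560 CPM in the Chat and Snap25 inputs, 309 CPM in TRAP_Chat and 88.6 CPM in TRAP_Snap25. Atp1b1 was closest to Ppil1 (0.941), Ociad1 (0.94) and Ythdf1 (0.92), and Fxyd6 to Kctd2 (0.934), Ydjc (0.888) and Bop1 (0.882). Fxyd2 was closest to Crls1 (0.897), Cse1l (0.873) and Ap5m1 (0.859), and Atp1b3 to Srd5a1 (0.876), Skap2 (0.854) and Tprkb (0.847). Among the members themselves, Atp1b1 and Fxyd1 ran most strongly against each other (r = -0.873), followed by Atp1b2 and Fxyd7 (-0.813), and the highest positive value was that of Fxyd6 and Fxyd7 (0.662).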

How the data were processed

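Per the labels' protocols, RNA from input and from a 4-hour pulldown was purified with TRIzol, treated with DNase, amplified with the Ovation RNA-Seq System V2 and sequenced on a HiSeq2500. The authors deposited raw counts of reads per gene. STAR and HTSeq are named in the submitters' processing notes, and no version, strand setting or genome build is stated there. Of 41736 lines, 824 repeated an identifier and were dropped. GENCODE M21 (GRCm38) supplied exon lengths, positions and coding sequences.

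Counts of all 12 libraries were fitted with edgeR 4.0.16 (R 4.3.3), with TMM scaling, filterByExpr, 1 mean per group, the quasi-likelihood test and Benjamini-Hochberg adjustment over 15905 genes at a two-sided threshold of 0.05. The procedure was tested on simulated data. CPM are counts per 1000000 of TMM-scaled library size. Depth and the counts behind low levels are given with the results, and they cover counting error only. Correlations used a prior count of 2. DESeq2 1.42.0 and limma 3.58.1 voom were among 20 alternatives: other scaling and filters, fewer groups, no mitochondrial genes, a replicate block, and each library left out.

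All 7 members are named. From each related list at most 3 called genes per direction with the lowest adjusted p are named, and for each member the 3 genes with the highest correlation. The members and lists were chosen with earlier results of these data known. A few genes that this rule or the lists would name are not reported here.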

Additional observations from a re-analysis of the deposited data

How the results depend on the processing

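The calls of Atp1b2 and Fxyd7 against input in both lines, of Fxyd7 between the pulldowns, and of Atp1b1 and Fxyd1 in the Snap25 line held under all 20 alternatives, and no called member changed sign. With 1 library left out, the members called were 2 to 3 in TRAP_Chat against input, 4 in TRAP_Snap25 against input, 1 to 2 between the pulldowns, and 0 in the difference between the lines and between the inputs. A fit of the pulldowns alone called 1 member between them, and no filter on low counts called 1 in the difference between the lines. No filter also brought Fxyd2 past the threshold in TRAP_Snap25 against input (adjusted p = 0.0474). The same-numbered input and pulldown libraries correlated in their deviations at 0.0601, 0.102 and 0.127 in the Chat line and -0.0365, 0.167 and 0.147 in the Snap25 line. These values do not settle whether the numbers pair samples, and the main fit did not pair them. Same-numbered input and pulldown libraries of a line do share a suffix in their descriptions, whose meaning the labels do not state. A replicate block called 3, 4, 2, 0 and 0 members in the 5 comparisons, as the unblocked fit did. It called 2445 against 2268 genes lower in TRAP_Chat. Between the pulldowns and between the inputs, the block joined Chat and Snap25 libraries by replicate number. The labels do not tie these numbers across lines, so those counts cannot show whether pairing matters. The only suffix found in both lines belonged to Chat replicate 2 and Snap25 replicate 1. Each Chat input correlated best with its own number, which was not so for Snap25 inputs 1 and 2. With no division by length, the Atp1b2 share among beta subunits was 33.2% and 31.9% in the Chat and Snap25 inputs and 5.71% in TRAP_Snap25. The Fxyd7 share, in the order PreIP_Chat, TRAP_Chat, PreIP_Snap25 and TRAP_Snap25, was 48.7%, 84.7%, 42.8% and 79.7% with the longest transcript, and 35.9%, 72.5%, 30.6% and 61.7% with no length; the change in the length used accounts for these moves by construction. Counts over all genes depended more on the setting. With 1 library left out, TRAP_Chat against input gave 1191 to 2376 genes higher (2005 with all libraries), the lowest being without PreIP_Chat replicate 2. TRAP_Snap25 against input gave 675 to 1688 higher and 1298 to 2321 lower (1541 and 2017), the lowest without PreIP_Snap25 replicate 2, and 890 higher with only the groups compared. Between the pulldowns the ranges were 355 to 961 higher and 266 to 574 lower (632 and 441); only the groups compared gave 237 and 145, DESeq2 1026 and 746, and no filter 1085 and 676. In the difference between the lines they were 26 to 152 and 26 to 97 (96 and 70), with 292 and 209 by DESeq2, 269 and 184 with no filter, and 106 lower by limma voom. Between the inputs (0 genes) DESeq2 called 1 gene higher, and no filter 6 higher and 1 lower. The cause of these moves was not tested. Fxyd2 had the fewest counts of the members, 7 to 150 a library, and its 3 PreIP_Chat libraries differed widely (7, 150 and 23).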
